A study of Homo sapiens with 8 samples.

Results

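The terminal part of the short arm of chromosome 5, band 5p15, was followed over 1.8 Mb from position 200001 to 2000000 (hg19), a stretch that holds the starts of AHRR, SLC12A7, TERT, CLPTM1L, SLC6A3 and LPCAT1. All windows of the deposited tables that lay wholly within these limits were taken, which gave 154 of 278316 windows of 100 kb and 316 of 556938 windows of 50 kb. Windows with a log2 concentration below 2 in either treatment were set aside as not measured, which left 153 and 313 of them. The gene starts were taken at 0.304 Mb for AHRR, 1.112 Mb for SLC12A7, 1.295 Mb for TERT, 1.345 Mb for CLPTM1L, 1.446 Mb for SLC6A3 and 1.524 Mb for LPCAT1. The locus was chosen because its signal changed with treatment in these tables, so its changes and calls are given as a description and carry no independent test.

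The cells were 786-O, an established human clear cell renal carcinoma line that lacks functional VHL, makes no functional HIF-1α and depends on HIF-2α. One group received 2 µM PT2399, a small molecule that binds HIF-2α and blocks its dimer with ARNT, for 3 h. The other received as much of the DMSO vehicle alone for the same time. SON TSA-seq was done on attached cells. Each treatment had 2 pulldown and 2 input libraries, 8 in all, and in 4 of them the title and the antibody or treatment field disagree, in which case the title was followed. The values are the authors' means over libraries, 1 for each treatment and window, on a log2 scale. No spread between replicates and no depth per library can be had from them. Nothing in the labels tells whether replicates came from separate cultures, so the deposited FDR may reflect technical spread only.

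SON is a scaffold protein of nuclear speckles, bodies rich in splicing factors and transcription machinery, and TSA-seq deposits biotin on DNA around an antibody, so that a higher SON signal stands for chromatin nearer to speckles. AHRR encodes the repressor of the aryl hydrocarbon receptor and competes with that receptor for ARNT, the same partner that HIF-2α uses. SLC12A7 encodes the potassium chloride cotransporter KCC4, and TERT the catalytic subunit of telomerase. CLPTM1L encodes a membrane protein of the CLPTM1 family. SLC6A3 encodes the dopamine transporter, which is known to be expressed in clear cell renal carcinoma, and LPCAT1 an acyltransferase that turns lysophosphatidylcholine into phosphatidylcholine.

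RefSeq promoter windows (GRCh38.p14, so their positions cannot be set on the hg19 windows) were listed for 5 of the 6 genes. The 250 bases before the start were searched on both strands for the letters ACGTG, the core of the hypoxia response element, and GCGTG, the core bound by the aryl hydrocarbon receptor with ARNT. The 3 sequences shown are those of LPCAT1 and CLPTM1L, whose starts lie in the segment with the lowest median change, and of SLC12A7, which had the smallest mean change of the 6. Capitals mark ACGTG or its reverse complement.
LPCAT1: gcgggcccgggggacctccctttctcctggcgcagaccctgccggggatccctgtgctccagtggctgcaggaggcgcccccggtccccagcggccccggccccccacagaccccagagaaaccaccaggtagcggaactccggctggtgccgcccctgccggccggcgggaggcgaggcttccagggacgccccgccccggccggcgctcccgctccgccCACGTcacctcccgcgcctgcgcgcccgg
CLPTM1L: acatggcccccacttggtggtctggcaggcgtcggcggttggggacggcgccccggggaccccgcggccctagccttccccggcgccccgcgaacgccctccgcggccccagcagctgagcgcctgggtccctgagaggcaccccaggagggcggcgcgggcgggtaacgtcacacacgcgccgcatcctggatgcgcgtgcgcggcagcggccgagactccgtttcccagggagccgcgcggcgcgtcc
SLC12A7: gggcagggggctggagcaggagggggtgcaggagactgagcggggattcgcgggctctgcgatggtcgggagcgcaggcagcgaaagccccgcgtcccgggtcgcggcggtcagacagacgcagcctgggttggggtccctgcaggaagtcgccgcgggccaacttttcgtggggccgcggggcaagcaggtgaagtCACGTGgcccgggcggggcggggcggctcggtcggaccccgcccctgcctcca
These lie on the minus strand, at chr5:1523961-1524210 for LPCAT1, at chr5:1345100-1345349 for CLPTM1L and at chr5:1112064-1112313 for SLC12A7. LPCAT1 had 1 match to ACGTG, and SLC12A7 and TERT each had 2 that overlap in a single palindrome. All 3 had 0 matches to GCGTG. CLPTM1L had 0 matches to ACGTG and 2 to GCGTG, and the AHRR entries had 0 matches to ACGTG and 1 or 2 to GCGTG. Of all 35116 RefSeq promoter windows of this length, 18.5% held ACGTG and 32.2% held GCGTG. SLC6A3 was the gene without an entry. Whether a match bears on the change in SON signal was not tested.

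The locus had a high SON signal. Over its measured 100 kb windows the authors' means had a median of 10.16 with PT2399, against 10.45 with DMSO, and the DMSO median exceeded 85.0% of all measured windows of the series. The DMSO signal stayed between 10.27 and 10.89 up to 1.3 Mb, peaked again at LPCAT1 and went down steeply beyond it. The segment around AHRR, taken as windows centred below 0.7 Mb, had a median of 10.19 with PT2399 and 10.55 with DMSO. The stretch between, centred from 0.7 to 1.3 Mb, had 10.29 with PT2399 and 10.50 with DMSO. The segment from SLC6A3 to LPCAT1, centred from 1.3 to 1.7 Mb, had 9.92 with PT2399 and 10.35 with DMSO. The distal flank, centred above 1.7 Mb, had 8.99 with PT2399 and 9.16 with DMSO. It is so named for lying farthest from AHRR, and it is on the side of the centromere, not of the chromosome end. The DMSO medians of the first 3 segments thus lay between 10.35 and 10.55, and that of the distal flank lay well below them.

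**Figure D1:**
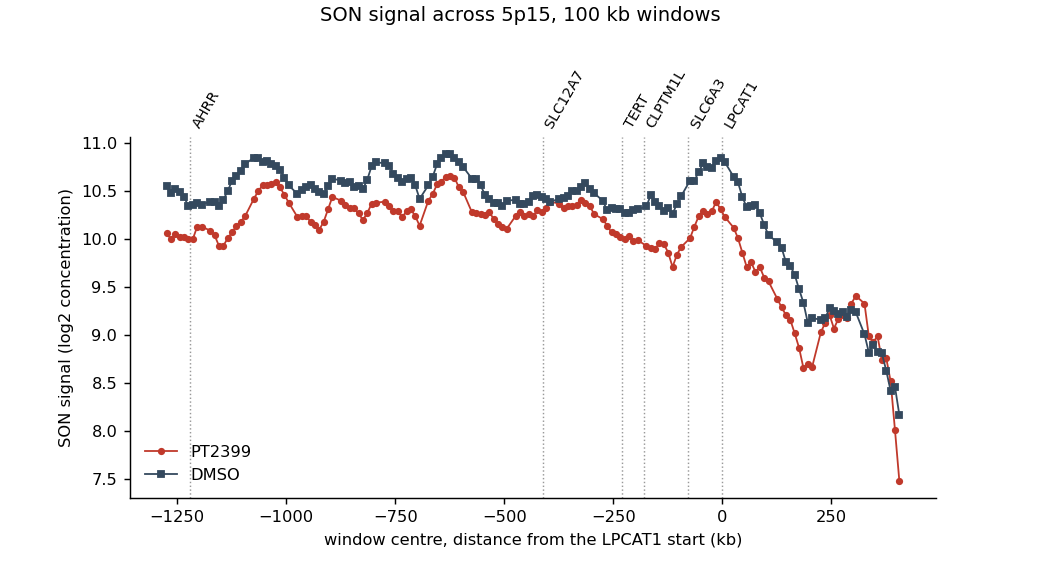
SON signal (log2 concentration, the authors' mean for each treatment) in the 153 measured 100 kb windows, against the distance of the window centre from the LPCAT1 start in kb, with PT2399 as circles and DMSO as squares. The PT2399 line runs below the DMSO line from AHRR to beyond LPCAT1 except for 1 window near SLC12A7 where they meet, and the lines cross in the distal flank, where both go down. Dotted lines mark the 6 gene starts.

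Changes are PT2399 minus DMSO on the log2 scale. Of the 153 measured 100 kb windows, 144 (94.1%) had a change below 0, with a median of -0.30 and quartiles of -0.47 and -0.18. That median corresponds to 81.2% of the DMSO level. A change below 0 was also found in 67.5% of all measured 100 kb windows of the series. Among those with a DMSO level of at least 8 the share was 78.1%. With 50 kb windows these shares were 64.3% and 78.4%. They are the background for the counts below 0 given for segments and genes in later paragraphs. The 3655 measured windows of chromosome 5 outside the locus had a median of -0.13 with quartiles of -0.47 and 0.21, and all 90286 measured windows of the series had the same median. At an FDR of at most 0.01 in the authors' deposited tables, 46 windows of the locus were lower, which is 30.1% of the measured ones, against a background of 1.55% for all measured windows of the series and 2.45% for those with a DMSO level of at least 8, which every measured 100 kb window of the locus had. Windows called higher numbered 0, against a background of 0.0853%, and 1 window was higher at an unadjusted DiffBind p under 0.05. At that p 108 were lower, and the share of all measured windows at it was not counted at either window size. With 50 kb windows 24 of 313 (7.67%) were called lower, against a background of 0.357%, or 0.721% at a DMSO level of at least 8. At that size 0 were called higher (background 0.0291%), with 1 at an unadjusted DiffBind p under 0.05. After recentring each window set on its median, with errors implied by the deposited p-values, 11 windows of 100 kb and 3 of 50 kb were called lower. The share of all measured windows called after recentring was not counted. The recentred counts, here and in later paragraphs, thus have no background beside them. Just inside the threshold lay the 100 kb window 1360001 to 1460000, with 9.71 with PT2399 and 10.26 with DMSO (FDR 0.00956 in the authors' deposited table), and just outside it 1350001 to 1450000, with 9.86 with PT2399 and 10.32 with DMSO (FDR 0.0102). Since the locus was picked from this same contrast, nothing can be read from these shares, and neighbouring windows overlap and are not independent.

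The changes differed along the locus. The median was -0.53 in the SLC6A3 to LPCAT1 segment, with quartiles of -0.58 and -0.46 over 36 windows. It was -0.31 in the AHRR segment, with quartiles of -0.43 and -0.24 over 42 windows. The stretch between had a median of -0.22, with quartiles of -0.30 and -0.16 over 54 windows, and the distal flank -0.05, with quartiles of -0.18 and 0.10 over 21 windows. With these 100 kb windows the quartile range of the SLC6A3 to LPCAT1 segment did not overlap that of any other segment, while those of the AHRR segment and the stretch between did overlap. With 50 kb windows the quartiles were -0.63 and -0.42 in the SLC6A3 to LPCAT1 segment and -0.51 and -0.19 in the AHRR segment, which overlapped. Over the 9 window sets, which share their reads, the median ran from -0.57 to -0.49 in the SLC6A3 to LPCAT1 segment, from -0.38 to -0.21 in the AHRR segment, from -0.27 to -0.17 in the stretch between and from -0.51 to 0.10 in the distal flank. With each set recentred on the median change of its measured windows, the medians moved to -0.40 in the SLC6A3 to LPCAT1 segment, -0.19 in the AHRR segment, -0.09 in the stretch between and 0.08 in the distal flank, so that the direction turned in the distal flank.

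**Figure D2:**
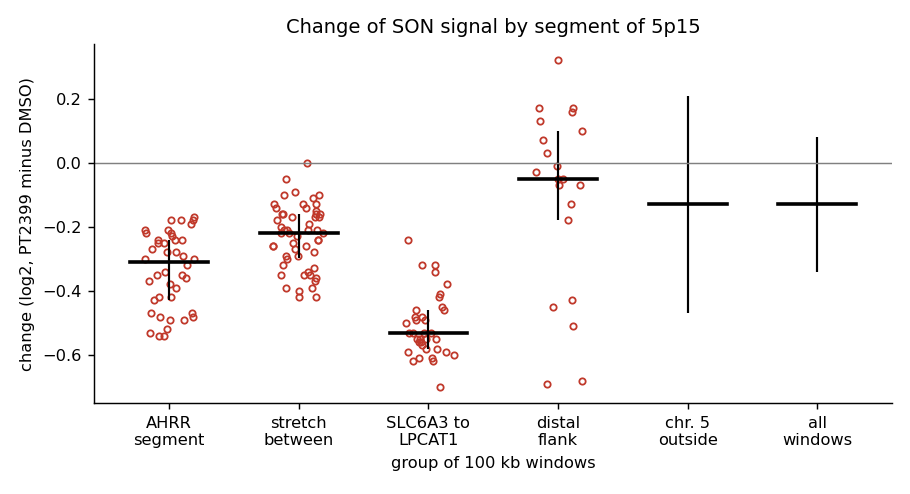
Change of SON signal (log2, PT2399 minus DMSO) in 100 kb windows by segment of the locus. Circles are measured windows, thick lines medians and vertical lines the quartile range; for chromosome 5 outside the locus and for all measured windows of the series only the median (-0.13 for both) and the quartile range are drawn. The SLC6A3 to LPCAT1 windows sit lowest, around -0.53, and the distal flank is the one segment with windows well above 0.

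The SLC6A3 to LPCAT1 segment had the lowest median change of the 4 segments and the longest run of called windows. All 36 of its 100 kb windows had a change below 0, from -0.70 to -0.24, and 25 of them (69.4%) were called lower in the authors' deposited tables. These joined into 1 run from 1310001 to 1740000, which extends from near the start of CLPTM1L past the starts of SLC6A3 and LPCAT1. After recentring 9 of the 36 were called. The window with the lowest FDR, 1480001 to 1580000, had 10.23 with PT2399, against 10.80 with DMSO, and contains the LPCAT1 start. At -0.57, its signal was 67.4% of that with DMSO (FDR 4.42e-08, as the authors' deposited table gives it). All 72 of the 50 kb windows also had a change below 0. Fewer were called at this size, 14 of the 72 (19.4%) in the authors' deposited tables and 3 after recentring. The 14 formed 4 shorter runs with uncalled windows between them. The first, 1315001 to 1365000, is a single window around the CLPTM1L start with 9.11 with PT2399 and 9.68 with DMSO (FDR 0.00426 in the authors' deposited table). The second ran from 1440001 to 1515000, from the SLC6A3 start towards LPCAT1, and its lowest-FDR window, 1450001 to 1500000, had 9.10 with PT2399 and 9.78 with DMSO (FDR 0.000958 in the authors' deposited table).

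Of these 4 runs, the one with the lowest FDR lay mostly beside the LPCAT1 start rather than centred on it. It ran from 1520001 to 1610000, and its lowest-FDR window, 1550001 to 1600000, had 8.68 with PT2399, against 9.61 with DMSO. The change was -0.93, or 52.5% of the signal with DMSO (FDR 4.72e-06 by the authors' deposited table). Its centre lies 51 kb from the LPCAT1 start, on the upstream side, since LPCAT1 is read on the minus strand. The 50 kb window centred closest to the start itself, 1500001 to 1550000, had 9.46 with PT2399 and 9.69 with DMSO, a change of -0.23 with an FDR of 0.289 in the authors' deposited table. Within the SLC6A3 to LPCAT1 segment larger changes occurred where the signal was going down, to -1.23 in the uncalled window 1660001 to 1710000. That window had 7.47 with PT2399 and 8.70 with DMSO (FDR 0.322 in the authors' deposited table). The fourth run, 1640001 to 1700000, had 8.28 with PT2399 and 9.12 with DMSO in its lowest-FDR window (FDR 0.00281 in the authors' deposited table). In RefSeq's gene order SDHAP3 and PDCD6P1, pseudogene copies of SDHA and PDCD6, follow LPCAT1, while SDHA and PDCD6 themselves come just before AHRR. Copies of the same sequences thus lie beside both AHRR and LPCAT1. No source used here says how reads from such copies were assigned, and their part in the result was not tested.

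**Figure D3:**
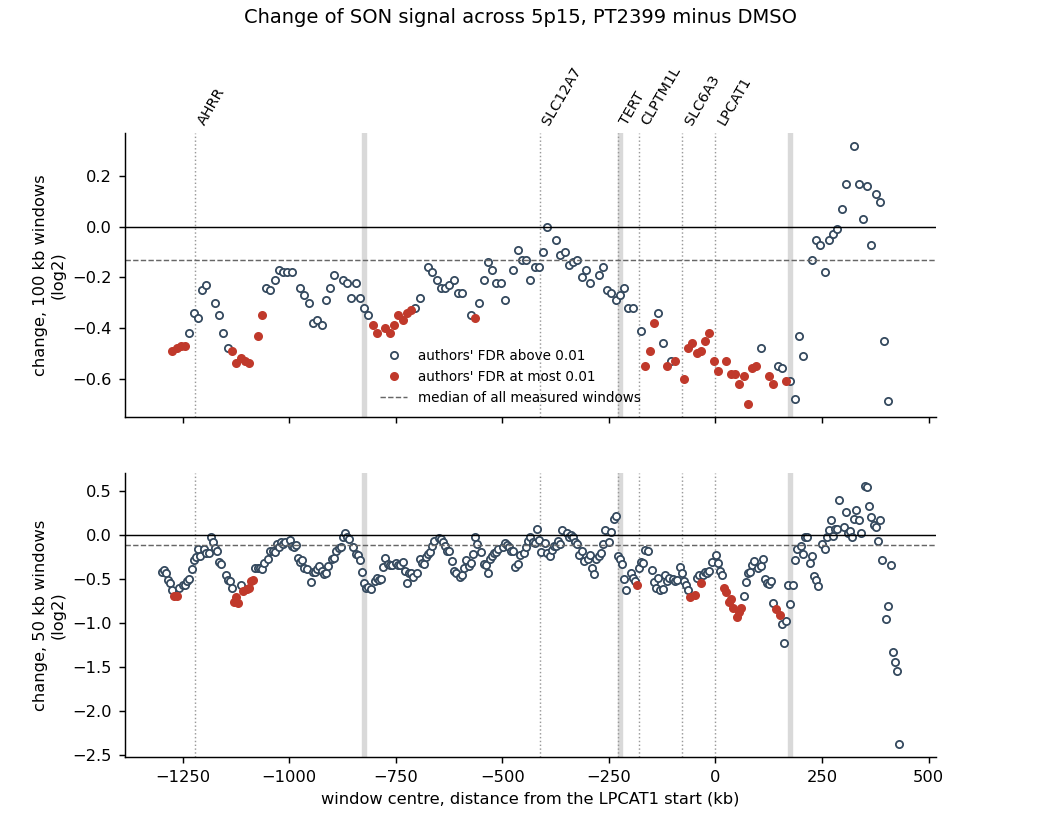
Change of SON signal (log2, PT2399 minus DMSO) against the distance of the window centre from the LPCAT1 start in kb, for measured 100 kb windows (upper panel) and 50 kb windows (lower panel). Filled points have an FDR of at most 0.01 in the authors' deposited tables, the dashed line is the median of all measured windows of the series, dotted lines mark gene starts and grey bars the borders of the segments. The 46 called 100 kb windows form 5 runs and the 24 called 50 kb windows 6 shorter ones, 2 of them in the AHRR segment and 4 in the SLC6A3 to LPCAT1 segment.

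Around AHRR the called windows fell into 2 runs, and with 50 kb windows the gene start lay between them. All 42 of the 100 kb windows of this segment had a change below 0, from -0.54 to -0.17, and 11 were called lower in the authors' deposited tables, against 2 after recentring. One run, 200001 to 330000, reached across the AHRR start and had its lowest FDR in the window 200001 to 300000, with 10.06 with PT2399 and 10.55 with DMSO, a change of -0.49 with an FDR of 0.000307 in the authors' deposited table. The other, 340001 to 510000, had its lowest FDR in the window 380001 to 480000, with 10.24 with PT2399 and 10.78 with DMSO, a change of -0.54 (FDR 1.13e-06, from the authors' deposited table). With 50 kb windows the runs shortened to 230001 to 285000 and 370001 to 465000. The second of these held the largest 50 kb change of the segment, in the window 380001 to 430000, with 8.73 with PT2399, against 9.51 with DMSO. The change was -0.78, or 58.2% of the signal with DMSO (FDR 0.000158 by the authors' deposited table), and its centre lies 101 kb from the AHRR start in the direction in which the gene is read. The 50 kb window centred closest to the AHRR start, 280001 to 330000, had 9.17 with PT2399 and 9.42 with DMSO, a change of -0.25 with an FDR of 0.279 in the authors' deposited table. Just outside the limits, the 100 kb window 100001 to 200000 had 10.42 with PT2399 and 10.67 with DMSO. Its change of -0.25 was not called (FDR 0.0422 in the authors' deposited table).

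The stretch between was not free of calls at 100 kb. There, 10 of its 54 windows were called lower in the authors' deposited tables, in a run from 670001 to 860000 and in the single window 910001 to 1010000. After recentring 0 of the 54 were called. The best window of the first, 680001 to 780000, had 10.38 with PT2399 and 10.80 with DMSO, a change of -0.42. With 50 kb windows 0 of 108 were called, and 42 were lower at an unadjusted DiffBind p under 0.05. The share of all measured windows lower at that p was not counted, so the 42 have no background beside them. Of the 54 windows 53 had a change below 0, and the remaining one, at 0.00, holds the SLC12A7 start. ZDHHC11B and ZDHHC11, palmitoyltransferase genes that follow TPPP in RefSeq's order, are near copies of each other. No source used here says how reads from them were assigned, and their part in the result was not tested.

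At the start of TERT, the telomerase gene, all 9 of the 100 kb windows had a change below 0, from -0.32 to -0.16, while the 50 kb windows ranged from -0.63 to 0.21. None of these was called. The 4 that reach farthest towards SLC12A7 ran from -0.08 to 0.21, the highest being 1265001 to 1315000, with 8.94 with PT2399 and 8.73 with DMSO (FDR 0.632 in the authors' deposited table). The one reaching farthest towards CLPTM1L, 1290001 to 1340000, had 8.80 with PT2399, against 9.43 with DMSO (FDR 0.0153 in the authors' deposited table). The TERT start lay just before the long run of called 100 kb windows.

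In the distal flank the lower signal continued over the first windows and then gave way to values on both sides of 0. Of its 21 measured 100 kb windows 13 had a change below 0, and 0 were called in either direction, with 2 lower and 1 higher at an unadjusted DiffBind p under 0.05. The share of all measured windows at that p was not counted. In the window 1800001 to 1900000 the signal was 9.33 with PT2399 and 9.01 with DMSO, a change of 0.32 that was the highest of the locus at this size (FDR 0.233 in the authors' deposited table). Of the flank's 46 measured 50 kb windows 26 had a change below 0, and 0 were called. The lowest of these changes, also the lowest measured 50 kb change of the locus, was -2.38 in 1930001 to 1980000. That window had 4.56 with PT2399 and 6.94 with DMSO (FDR 0.167 in the authors' deposited table). At the far limit of the locus the 2 window sizes disagreed with PT2399. There, the 100 kb window 1900001 to 2000000 stood at -0.11 with PT2399, the lowest value PT2399 takes in these tables, against 7.53 with DMSO (FDR 7.91e-06 in the authors' deposited table). Its first 50 kb, 1900001 to 1950000, had 6.26 with PT2399 and 7.22 with DMSO. The 100 kb value thus cannot be read as an end of the signal, and the closing section returns to it. This 100 kb window was the 1 of its size left out by the minimum, while the lowest measured one had 7.48 with PT2399 and 8.17 with DMSO. The next window outside the limits, 2000001 to 2100000, was at the lowest value in both treatments, -0.11 with PT2399 and -0.07 with DMSO.

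Ordered by the mean change of the 9 windows of 100 kb that hold each start, LPCAT1 came lowest with -0.52 (range -0.58 to -0.42) and SLC6A3 next with -0.51 (range -0.60 to -0.46). CLPTM1L, with a range from -0.55 to -0.24, and AHRR, with a range from -0.48 to -0.23, had the same mean of -0.37. TERT had -0.26 (range -0.32 to -0.16) and SLC12A7 -0.12 (range -0.21 to 0.00). The ranges of all neighbours in this order overlapped. Those of LPCAT1 and SLC12A7, at the ends, did not overlap at this size. The mean signal at the LPCAT1 start was 10.20 with PT2399 and 10.71 with DMSO, and at the SLC6A3 start 10.03 with PT2399 and 10.54 with DMSO. At the CLPTM1L start it was 9.96 with PT2399 and 10.33 with DMSO, and at the AHRR start 10.05 with PT2399 and 10.42 with DMSO. TERT had 10.05 with PT2399 and 10.31 with DMSO, and SLC12A7 had 10.30 with PT2399 and 10.42 with DMSO. AHRR and SLC12A7 thus had the same DMSO signal, to 2 decimals, and differed in the PT2399 signal.

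Of the 9 windows of 100 kb that hold a start, all 9 were called lower for LPCAT1, 7 for SLC6A3, and 3 each for CLPTM1L and AHRR in the authors' deposited tables. After recentring the count was 6 for LPCAT1, 1 for SLC6A3 and 0 for CLPTM1L and AHRR. For TERT and SLC12A7 it was 0 in both cases, with lowest FDRs of 0.0419 and 0.239 in the authors' deposited tables. With 50 kb windows 1 of 9 was called for each of LPCAT1, SLC6A3 and CLPTM1L, and 0 for AHRR, whose lowest FDR was 0.0396 in the authors' deposited table. After recentring 0 of the 50 kb windows holding any of the 6 starts were called. The order changed at this size, with SLC6A3 lowest at -0.53, LPCAT1 at -0.40, CLPTM1L at -0.38, AHRR at -0.34, TERT at -0.18 and SLC12A7 at -0.10. The 50 kb ranges of LPCAT1 (-0.60 to -0.23) and SLC12A7 (-0.24 to 0.06) overlapped. That of SLC6A3 (-0.71 to -0.37) did not overlap the SLC12A7 range. Recentring put SLC12A7 at 0.01 with 100 kb windows, so that the direction at this gene depends on the scaling between treatments.

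**Figure D4:**
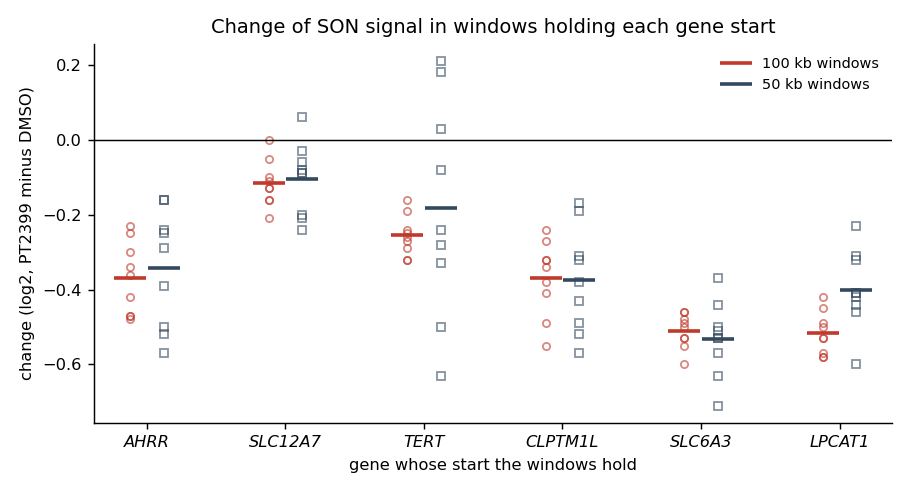
Change of SON signal (log2, PT2399 minus DMSO) in the windows that hold each gene start, with 9 windows of 100 kb (circles) and 9 of 50 kb (squares) for each gene and their mean as a bar. The windows overlap and are not replicates; at 100 kb LPCAT1 and SLC6A3 average -0.52 and -0.51 and SLC12A7 -0.12, and the 50 kb windows at TERT spread from -0.63 to 0.21.

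The authors' deposited gene lists, which give genes of lower windows without values, held 4 of the 6 genes at 100 kb, AHRR, CLPTM1L, SLC6A3 and LPCAT1, and the last 3 of these at 50 kb. The lists follow from the calls described here and add no evidence. From SDHA to IRX4, RefSeq's order has 23 named protein-coding genes, of which 10 were in the authors' deposited 100 kb list, against 4.31% of all protein-coding genes, and 5 were in the 50 kb list, against 1.11%. On the AHRR side these were SDHA, the flavoprotein of succinate dehydrogenase, PDCD6, a calcium-binding protein, and EXOC3, a subunit of the exocyst, with PDCD6 and EXOC3 also at 50 kb. TPPP, which promotes tubulin polymerisation, ZDHHC11 and NKD2, an inhibitor of Wnt signalling, come before SLC12A7 in that order and were in the 100 kb list alone. SLC9A3, the sodium proton exchanger of the renal proximal tubule, and the amino acid transporters SLC6A19 and SLC6A18 were in neither list, nor were MRPL36, NDUFS6 and IRX4, which follow LPCAT1. GTF2H2C_2, counted among the 23, was in neither list as well, and its place in this interval was not checked. A further 4 entries without a protein were listed as well, the RNAs EXOC3-AS1 and SLC9A3-OT1, the pseudogene SDHAP3 and MIR4277.

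Genes related to the 6 were counted in the same lists. Of 14 genes of the aryl hydrocarbon receptor pathway, the authors' deposited 100 kb list held ARNT and AHRR, and the 50 kb list ARNT alone. Of 14 genes of telomerase and shelterin 0 were in either list. Of 19 SLC6 transporters SLC6A3 and SLC6A9, a glycine transporter, were in the 100 kb list, and SLC6A3 alone was in the 50 kb list. Of 9 SLC12 cotransporters SLC12A3 was in the 100 kb list, and 0 were in the 50 kb list. Of 14 acyltransferases that use lysophospholipids, LPCAT1 and AGPAT2 were in the 100 kb list, and LPCAT1 and LPCAT2 in the 50 kb list. For comparison, 4.31% and 1.11% of all protein-coding genes were in the 2 lists, and with 0 to 2 listed members no family can be set apart from that background.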

How the data were processed

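Per the submitters' processing notes, Bowtie2, Picard, DiffBind and bedtools were used with the build hg19; no source used here gives versions, roles or the use of the inputs. The deposited tables hold, per the file headers, log2 concentrations for control (DMSO), treatment (PT2399) and their mean, a log2 fold, a p-value and its FDR by window, in 9 sets of 100 kb windows (step 10 kb) and 9 of 50 kb windows (step 5 kb). The deposited fold equals control minus treatment to within 0.01; changes here are treatment minus control. Depth per library is unknown, and a count test could not be made, so the authors' FDR at a maximum of 0.01 served as the call.

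Segments were cut by window centre, and called windows were merged when they overlapped by at least 1 bp. Genes were placed by starts that came with the choice of the locus; the 6 genes, listed neighbours and listed members of 5 gene families were named. The locus, genes and lists were chosen with earlier results of these data known. The recentred calls use the error implied by fold and p-value. They were run on simulated data built with that same error, which cannot show whether it suits the deposited p-values. Alternatives are in the closing section. The tools were Python 3.11.15, matplotlib 3.10.9, pandas 2.3.3, numpy 2.4.6 and scipy 1.17.1.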

Additional observations from a re-analysis of the deposited data

How the results depend on the processing

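No paired analysis was possible because the tables hold 1 mean per treatment, and for the same reason no replicate could be left out. A median counted as moved when it shifted by more than the standard deviation over the 9 window sets. Recentring each set on its measured windows (offsets from -0.13 to -0.12) gave -0.19 for the AHRR segment, -0.09 for the stretch between, -0.40 for the SLC6A3 to LPCAT1 segment, 0.08 for the distal flank and 0.01 for the SLC12A7 start, by subtraction of the offset alone. Summed linear concentrations gave -0.50 for the SLC6A3 to LPCAT1 segment. With borders 0.1 Mb lower this segment had -0.46 and its difference from the stretch between was -0.24, against -0.31; with borders 0.1 Mb higher the distal flank had 0.09. The other settings kept the direction of every segment. Of 100 kb windows 46 were called lower, 70 at an FDR of 0.05, 28 at 0.001 and 11 after recentring with implied errors, while 24 were called with 50 kb windows. The implied error without recentring, added after seeing the data, gave 42. After recentring, 9 of the 11 lay in the SLC6A3 to LPCAT1 segment, from 1430001 to 1650000, and 2 in the AHRR segment, from 350001 to 480000. Calls of higher windows numbered 0 in every setting run.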

Other observations

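The 100 kb and 50 kb values of the locus add up wherever both treatments are well above the lowest value. Over the 153 measured 100 kb windows, the linear concentration divided by the sum of the 2 windows of 50 kb that make it up ran from 0.989 to 1.01 with PT2399 and from 0.992 to 1.01 with DMSO. The window 1900001 to 2000000 did not follow this with PT2399. Its linear concentration was 0.927, while the first 50 kb alone, 1900001 to 1950000, had 76.6, or 6.26 on the log2 scale; with DMSO the ratio was 1.01. The change of -7.64 of this window is therefore far larger than that of its first 50 kb, -0.96 (FDR 0.507 in the authors' deposited table). The second 50 kb were at -0.11 with PT2399 and 5.10 with DMSO (FDR 0.178 in the authors' deposited table). What sets the lowest value was not tested.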
